A study of Mus musculus with 8 samples.

Results

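The genes described here are 38 mouse genes that interferons switch on and whose products act against viruses: nucleic acid sensors, transcription regulators, the ISG15 pathway, blockers of translation, oligoadenylate synthetases, restriction factors, ADP-ribosyltransferases and a few other induced proteins. They were chosen by name from a list that leaves out interferon-inducible GTPases, chemokines and MHC genes, and were matched by NCBI gene number to the rows of the deposited expression table. Of the 38, 36 had a row among 18020 rows, and Mx1 and Mx2 were not analysed here. A mean of at least 0.5 FPKM (fragments per kilobase per library total, a level corrected for transcript length) over the 8 libraries was reached by 34, and Ifit1 and Ifi44, which lay below it, were kept in the tests.

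The libraries were made from bone marrow RNA of leukaemic mice that had received B-ALL cells, that is B-cell acute lymphoblastic leukaemia driven by the fusion tyrosine kinase BCR-ABL1. KO_LPS (n = 3) stands for knockout (KO) BCR-ABL1+ B-ALL cells with LPS, lipopolysaccharide, a bacterial cell wall component sensed by Toll-like receptor 4. WT_LPS (n = 3) stands for wild-type (WT) BCR-ABL1+ B-ALL cells with LPS, and WT_PBS (n = 2) for WT cells with phosphate-buffered saline, the vehicle. The design text words the treatment as one of the cells before transplant, while the sources used here give no dose, time or route and no strain or age of the mice. The genotype is that of the transplanted cells, so every marrow also held host cells to which that genotype does not refer, and no library of KO cells with PBS was analysed here. The labels do not say whether the libraries of a group came from separate cultures or mice, so the spread behind every p-value is that of these libraries and may be technical.

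Interferons bind receptors at the cell surface, and the receptors' Janus kinases phosphorylate STAT proteins. After type I interferon, STAT proteins join IRF9 in the complex ISGF3, which binds the interferon-stimulated response element (ISRE) in the promoters of genes such as Isg15 and Ifit1. Interferon gamma acts mainly through gamma-activated sequences (GAS). LPS can induce interferon beta through Toll-like receptor 4 in myeloid cells, and nucleic acid sensors such as RIG-I do so in most cell types.

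The libraries stood apart from one another in ways the groups did not follow. FPKM summed to between 606576 and 700238 a library, and depth in reads is unknown. A first principal component with 60.5% of the variance gave scores of 34.5, 50.02 and -21.1 in KO_LPS replicates 1 to 3, of 17.4, -30.1 and -14.2 in WT_LPS replicates 1 to 3, and of -1.30 and -35.1 in WT_PBS replicates 1 and 2. All 9 B-lineage markers were present, and their summed level was 5306 to 7866 FPKM in KO_LPS, 5314 to 6589 FPKM in WT_LPS and 5394 to 6157 FPKM in WT_PBS. Such a sum can hide single markers. Of the 9, Pax5 and Cd22 were lower in every KO_LPS library than in either WT_PBS library, and Blnk was higher. Among all tested genes 13.3% were lower in this way and 8.22% higher. Blnk was also higher in every WT_LPS library, at 86.2, 56.6 and 59.8 FPKM, than in WT_PBS, at 45.01 and 51.1 FPKM. The 11 neutrophil markers summed to 6904, 5870 and 14905 FPKM in KO_LPS, 29397, 9481 and 9032 FPKM in WT_LPS and 12841 and 16335 FPKM in WT_PBS, so the marrows held RNA of other cell types in unequal amounts. In such bulk RNA, fewer cells of a type and less RNA per cell cannot be told apart.

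The promoters of several members carried the ISRE core in its textbook form. RefSeq promoter windows of the GRCm38.p6 assembly, from 250 bases before to 50 bases after the start of transcription, were available for 27 of the 38 members. The core, GAAANNGAAA on either strand, was found in 11 of these 27 windows (40.7%), against 363 of 9268 tested genes with a window (3.92%) and 3.99% of all 27025 windows. The 18 matches, some of which overlap, lay from -151 to 37 bases relative to the start. A match is a run of letters in the window and not a measured binding site.

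Stretches that lie wholly upstream of the start are printed for 6 members with a match, in the direction of transcription, with the matched letters in capitals. They show how the same core occurs once, doubled or in overlapping tandem, on the strand of the gene (GAAA first) or on the other strand (TTTC first). Isg15 (GRCm38.p6 chr4:156200855-156200916, minus strand) carried 3 matches that overlap in 1 run, and Bst2 (chr8:71537567-71537622, minus strand) 2 that overlap. Ifit1 (chr19:34640765-34640833, plus strand) and Ifit3 (chr19:34583353-34583422, plus strand) each carried 2 separate matches read from the other strand. Rsad2 (chr12:26456543-26456592, minus strand) and Oas3 (chr5:120777705-120777754, minus strand) had 1 match each.
Isg15: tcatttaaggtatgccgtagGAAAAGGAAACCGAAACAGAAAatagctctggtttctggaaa
Bst2: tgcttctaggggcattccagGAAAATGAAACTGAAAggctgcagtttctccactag
Ifit1: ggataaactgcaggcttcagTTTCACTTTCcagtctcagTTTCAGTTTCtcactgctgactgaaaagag
Ifit3: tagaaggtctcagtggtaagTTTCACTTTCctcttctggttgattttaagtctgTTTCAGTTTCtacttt
Rsad2: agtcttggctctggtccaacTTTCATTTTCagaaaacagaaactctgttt
Oas3: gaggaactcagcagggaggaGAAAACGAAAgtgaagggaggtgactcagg

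Levels of the members spanned a wide range in this marrow. Per transcript length, the highest was Ifi27l2a, which averaged 128 ± 23.2 FPKM in KO_LPS, 66.7 ± 1.04 FPKM in WT_LPS and 56.4 ± 6.3 FPKM in WT_PBS (SD, n = 3, 3 and 2). Next came Bst2, with 89.9 ± 33.3 FPKM in KO_LPS, 46.6 ± 5.12 FPKM in WT_LPS and 52.9 ± 2.73 FPKM in WT_PBS. The lowest were Ifi44 and Ifit1, whose values over the 8 libraries were 0.05 to 0.75 FPKM and 0.07 to 0.80 FPKM. Members therefore range from abundant transcripts to ones near the limit of the table's 2 decimals.

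The comparison of KO_LPS with WT_LPS asked how marrow with KO leukaemia differed from marrow with WT leukaemia when both had LPS. Nearly every member read higher in KO_LPS, by a median of 0.54 on the log2(FPKM + 1) scale against a median of -0.06 over all 12063 genes tested, but no single member passed the threshold. Differences on this scale understate the change of low genes. At an adjusted p under 0.05 (limma, Benjamini-Hochberg over all tested genes, two-sided), 0 of 36 members were called, while 10 genes were called in all, or 0.0829% (0.0580% higher and 0.0249% lower). At an unadjusted p under 0.05, 21 of 36 members were higher and 0 lower (limma), where 2.51% of all genes were higher and 3.17% lower. The difference was above 0 for 35 of 36 members, against 42.0% of all genes, and Trim25 was the 1 member below 0, against 58.0% of all genes. All 3 KO_LPS libraries lay above all 3 WT_LPS libraries for 24 members, against 4.82% of all genes, and the reverse held for 0 members, against 4.32%.

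The count above 0 and the calls held when scaling changed. With median-ratio scaling and with quantile normalization, 35 of 36 members were above 0, with medians of 0.61 and 0.66 and 0 members called. At an unadjusted p under 0.05 (limma) there were 23 and 26 members, among 706 and 730 genes. The count of members without overlap was not repeated after scaling. The median depended on the pseudocount, being 0.86 with 0.1 and 0.34 with 5 in place of 1, with 35 of 36 above 0 and 0 called in both. The calls depended on single libraries. Without KO_LPS replicate 3, 11 members passed (Zbp1, Irf7, Isg15, Ifit3, Oasl1, Bst2, Rsad2, Parp12, Rtp4, Ifi27l2a and Lgals3bp) among 161 genes. Neutrophil markers moved with this comparison: 11 of 11 lay below 0, with a median of -0.71 and none called. Of 9 monocyte and macrophage markers, 7 lay below 0, with a median of -0.36 and none called, and their summed level was 433 to 769 FPKM in KO_LPS, 553 to 809 FPKM in WT_LPS and 588 to 792 FPKM in WT_PBS. Among them Csf1r, the receptor for macrophage growth factor CSF1, was lower in every KO_LPS library than in any WT_LPS library. Of 6 tested erythroid markers, 5 lay above 0, with a median of 1.06 and none called. All 8 listed erythroid markers summed to 1034, 865 and 211 FPKM in KO_LPS, 379, 269 and 229 FPKM in WT_LPS and 366 and 259 FPKM in WT_PBS. Only KO_LPS replicates 1 and 2 were thus high, and KO_LPS replicate 3 was the lowest of the 8 libraries. Of 9 B-lineage markers, 6 lay below 0, with a median of -0.03 and none called. The part of these cell types in the members' differences was not tested.

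**Figure D1:**
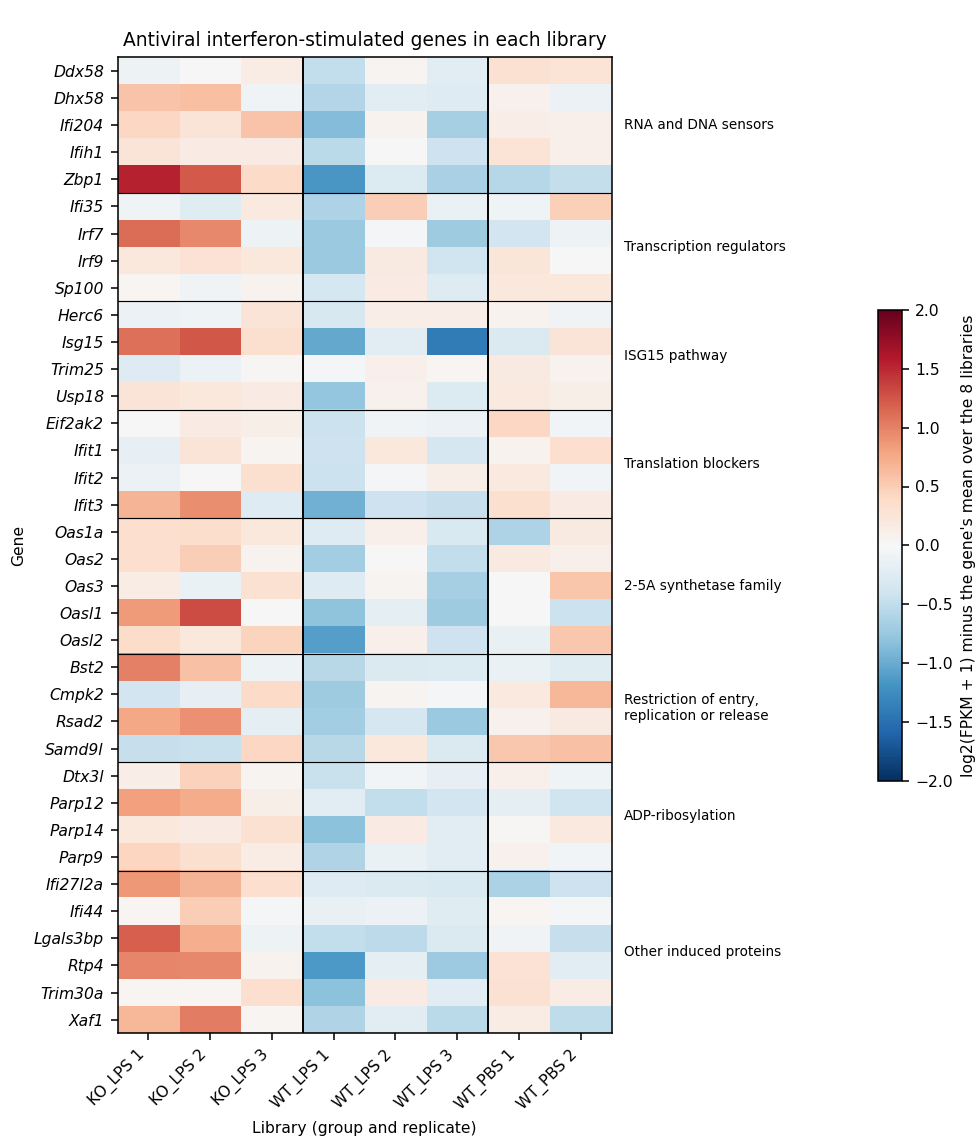
Heat map of the 36 members with a row in the table, grouped by role (rows), in the 8 libraries (columns, KO_LPS, WT_LPS, then WT_PBS). Colour gives log2(FPKM + 1) minus the gene's mean over the 8 libraries. WT_LPS replicate 1 is the lowest of the 8 libraries for 27 members, and KO_LPS replicates 1 and 2 are above the other 6 for 18.

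Among the sensors, all 5 differences were above 0, with a median of 0.73. Zbp1, which senses nucleic acids in the left-handed Z form and can start necroptosis, was at 19.9, 15.9 and 8.43 FPKM in KO_LPS, against 2.2, 4.95 and 3.58 FPKM in WT_LPS and 3.83 and 4.17 FPKM in WT_PBS. Every KO_LPS library lay above every other library, with KO_LPS replicate 3 the lowest of the 3. The difference of 1.75 ± 0.33 (SE; 95% interval 0.99 to 2.51) did not pass (limma, adjusted p = 0.195), although the ratio of mean FPKM was 4.12.

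Ifi204, a PYHIN protein of the mouse that has been linked to DNA sensing, was at 2.45, 2.08 and 2.83 FPKM in KO_LPS, against 0.41, 1.71 and 0.63 FPKM in WT_LPS and 1.82 and 1.76 FPKM in WT_PBS. Its KO_LPS values again lay above all 5 other libraries, and WT_LPS replicates 1 and 3 were the lowest (0.90 ± 0.25, limma, adjusted p = 0.561). Reads of Ifi204 may be shared with similar genes of its cluster on chromosome 1, so its level is uncertain. Dhx58, which encodes LGP2, a relative of RIG-I without its signalling domain, was at 7.62, 7.8 and 4.56 FPKM in KO_LPS, against 2.86, 3.96 and 3.85 FPKM in WT_LPS and 5.18 and 4.38 FPKM in WT_PBS. KO_LPS replicate 3 lay within the WT_PBS range, and the KO_LPS and WT_LPS groups did not overlap (0.73 ± 0.23, limma, adjusted p = 0.686).

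The best known sensors of cytosolic RNA had smaller differences. Ifih1, which encodes MDA5, a sensor of long double-stranded RNA, was at 2.02, 1.81 and 1.81 FPKM in KO_LPS, against 0.73, 1.51 and 0.89 FPKM in WT_LPS and 2.05 and 1.71 FPKM in WT_PBS, and Ddx58, which encodes RIG-I, a sensor of short RNA with 5′ triphosphates, at 4.03, 4.45 and 4.99 FPKM in KO_LPS, against 2.85, 4.61 and 3.67 FPKM in WT_LPS and 5.69 and 5.56 FPKM in WT_PBS. For Ifih1 the KO_LPS and WT_LPS groups did not overlap (0.51 ± 0.19), whereas for Ddx58 they did (0.23 ± 0.20; limma, adjusted p = 0.765 for each).

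Of the 4 transcription regulators, Irf7 differed most. Irf7, the regulator that amplifies type I interferon production, was at 18.3, 16.3 and 7.29 FPKM in KO_LPS, against 4.34, 7.65 and 4.47 FPKM in WT_LPS and 5.82 and 7.33 FPKM in WT_PBS. KO_LPS replicates 1 and 2 were far above the rest, while KO_LPS replicate 3 lay below WT_LPS replicate 2, so the groups overlapped (1.15 ± 0.34, limma, adjusted p = 0.611). Irf9, the DNA-binding subunit of ISGF3, was at 15.8, 16.7 and 15.7 FPKM in KO_LPS, against 7.71, 15.5 and 10.01 FPKM in WT_LPS and 16.2 and 13.4 FPKM in WT_PBS. Its KO_LPS values sat close together and just above WT_LPS replicate 2 (0.55 ± 0.23, limma, adjusted p = 0.765). Ifi35, which pairs with the interferon-induced protein Nmi, and Sp100, a protein of nuclear bodies, overlapped between KO_LPS and WT_LPS, with differences of 0.04 ± 0.29 and 0.16 ± 0.17. Ifi35 was at 16.3, 14.5 and 20.2 FPKM in KO_LPS, against 11, 25.02 and 15.9 FPKM in WT_LPS and 16.3 and 24.6 FPKM in WT_PBS, with its extremes in WT_LPS replicates 1 and 2. Its mean FPKM was lower in KO_LPS (0.983 times that in WT_LPS), while its difference on the log2(FPKM + 1) scale was just above 0.

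Members of the ISG15 pathway ranged in difference from -0.15 to 1.77. Isg15, the ubiquitin-like protein that is attached to other proteins and also secreted, was at 8.72, 9.67 and 4.69 FPKM in KO_LPS, against 1.23, 2.91 and 0.72 FPKM in WT_LPS and 2.71 and 4.44 FPKM in WT_PBS. Its 3 KO_LPS libraries were the 3 highest and WT_LPS replicates 1 and 3 the lowest. The difference of 1.77 ± 0.36 (95% interval 0.94 to 2.59; ratio of mean FPKM 4.75) was the largest among the members in this comparison and did not pass (limma, adjusted p = 0.267). Usp18, the protease that removes ISG15 and restrains the interferon receptor, was at 1.86, 1.76 and 1.66 FPKM in KO_LPS, against 0.4, 1.54 and 0.98 FPKM in WT_LPS and 1.73 and 1.59 FPKM in WT_PBS. The KO_LPS libraries read alike, at 1.66 to 1.86 FPKM, and the difference of 0.53 ± 0.23 (limma, adjusted p = 0.765) rested on WT_LPS values that spread from 0.40 to 1.54 FPKM. Herc6, the main ligase for ISG15 in the mouse, was at 2.72, 2.78 and 3.81 FPKM in KO_LPS, against 2.24, 3.42 and 3.42 FPKM in WT_LPS and 3.21 and 2.83 FPKM in WT_PBS, and the groups overlapped with a difference of 0.03 ± 0.21. Trim25, a ubiquitin ligase that activates RIG-I, was the only member with a difference below 0 on the log2(FPKM + 1) scale (-0.15 ± 0.14, limma, adjusted p = 0.767), at 16.02, 17.7 and 19.7 FPKM in KO_LPS, against 18.7, 20.8 and 19.9 FPKM in WT_LPS and 22.1 and 20.4 FPKM in WT_PBS.

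Among the blockers of translation, Ifit3 stood out from the other 3 genes. Ifit3, a partner of IFIT1 in binding foreign RNA caps, was at 2.84, 3.59 and 1.01 FPKM in KO_LPS, against 0.24, 0.8 and 0.75 FPKM in WT_LPS and 2.01 and 1.69 FPKM in WT_PBS. The LPS groups did not overlap, and KO_LPS replicate 3 lay below the WT_PBS libraries (1.06 ± 0.31, ratio of means 4.16; limma, adjusted p = 0.594). The near copy Ifit3b can share reads with Ifit3, which makes its level uncertain. Ifit1, Ifit2 and Eif2ak2, the last of which encodes the RNA-activated kinase PKR, had differences of 0.23 ± 0.21, 0.18 ± 0.22 and 0.29 ± 0.19. Eif2ak2, the highest of the 4, was at 10.01, 11.4 and 11.02 FPKM in KO_LPS, against 7.25, 9.59 and 9.19 FPKM in WT_LPS and 13.8 and 9.64 FPKM in WT_PBS, and its KO_LPS values lay just above those of WT_LPS. For Ifit2, the neighbour of Ifit3 on chromosome 19, the ratio of means was 1.15, and the difference between the 2 genes was not tested.

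Oligoadenylate synthetases make a second messenger that activates RNase L, and all 5 genes of the family lay above 0, with a median of 0.70. Oasl1, which lacks this activity and in the mouse represses translation of Irf7, was at 9.68, 13.6 and 4.92 FPKM in KO_LPS, against 2.4, 4.15 and 2.61 FPKM in WT_LPS and 4.9 and 3.4 FPKM in WT_PBS. KO_LPS replicates 1 and 2 were the highest and KO_LPS replicate 3 was level with WT_PBS replicate 1 (1.29 ± 0.34, limma, adjusted p = 0.501). Oas2 was at 4.17, 4.77 and 3.3 FPKM in KO_LPS, against 1.53, 3.11 and 1.9 FPKM in WT_LPS and 3.64 and 3.39 FPKM in WT_PBS, with no overlap of KO_LPS and WT_LPS and the WT_PBS values between the KO_LPS ones (0.70 ± 0.23, limma, adjusted p = 0.715). Oas1a, the highest of the 5, was at 8.05, 8.07 and 7.24 FPKM in KO_LPS, against 4.99, 6.67 and 4.81 FPKM in WT_LPS and 3.64 and 7.07 FPKM in WT_PBS, and its difference was 0.45 ± 0.24, with a level made uncertain by the similar Oas1 copies beside it. Oasl2 and Oas3 had differences of 0.81 ± 0.32 and 0.40 ± 0.25, and only Oas3 of the 5 overlapped between KO_LPS and WT_LPS.

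The restriction factors with a row split into a pair with large differences and a pair with small ones. Bst2, the tetherin that holds budding virions at the cell surface, was at 123, 91.3 and 55.99 FPKM in KO_LPS, against 40.7, 49.2 and 49.8 FPKM in WT_LPS and 54.8 and 50.9 FPKM in WT_PBS. All KO_LPS libraries were above the rest, KO_LPS replicate 3 only just above WT_PBS replicate 1 (0.87 ± 0.25, limma, adjusted p = 0.575). Rsad2, which encodes viperin, an enzyme that makes a chain-terminating nucleotide, was at 2.58, 2.95 and 0.84 FPKM in KO_LPS, against 0.29, 0.65 and 0.25 FPKM in WT_LPS and 1.21 and 1.38 FPKM in WT_PBS. Its WT_LPS mean was only 0.397 FPKM, so its ratio of means rests on low values of unknown precision. WT_PBS here lay above KO_LPS replicate 3 and above all 3 WT_LPS libraries (1.10 ± 0.29, ratio of means 5.35; limma, adjusted p = 0.501).

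Cmpk2, a nucleotide kinase gene beside Rsad2 on chromosome 12, had the lower difference of the pair, which was not tested against that of Rsad2. It was at 2.42, 2.99 and 4.83 FPKM in KO_LPS, against 1.73, 3.66 and 3.33 FPKM in WT_LPS and 4.13 and 6.04 FPKM in WT_PBS, and the KO_LPS libraries with the highest Rsad2 had the lowest Cmpk2 of their group (0.18 ± 0.29). Samd9l, an inhibitor of poxvirus replication and of cell growth, was at 1.81, 1.85 and 4.13 FPKM in KO_LPS, against 1.64, 3.45 and 2.15 FPKM in WT_LPS and 4.62 and 4.8 FPKM in WT_PBS, with KO_LPS replicates 1 and 2 below WT_LPS replicates 2 and 3 (0.05 ± 0.29; limma, adjusted p = 0.84 for Cmpk2 and 0.957 for Samd9l).

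All 4 genes of ADP-ribosylation were above 0 without overlap between KO_LPS and WT_LPS. Parp12, which attaches single ADP-ribose units and restricts RNA viruses, was at 14.4, 13.6 and 8.4 FPKM in KO_LPS, against 6.45, 5.22 and 5.69 FPKM in WT_LPS and 6.59 and 5.63 FPKM in WT_PBS, and its KO_LPS libraries were the 3 highest (0.93 ± 0.23, limma, adjusted p = 0.451). Parp9, the highest of the 4, was at 24.6, 22.7 and 20.1 FPKM in KO_LPS, against 11.5, 16.3 and 15.5 FPKM in WT_LPS and 19.1 and 17.2 FPKM in WT_PBS (0.61 ± 0.17, limma, adjusted p = 0.554). Dtx3l, the ubiquitin ligase that forms a complex with PARP9, had a difference of 0.45 ± 0.18, and Parp14 one of 0.53 ± 0.25. Dtx3l and Parp9 overlap at their ends on chromosome 16, and since the use of strand in counting is not stated, reads from the overlap cannot be told apart.

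The other induced proteins had the highest median of the role groups, 0.97 over 6 genes. Ifi27l2a, a small membrane protein gene, was at 149.6, 132 and 104 FPKM in KO_LPS, against 67.8, 66.7 and 65.7 FPKM in WT_LPS and 51.9 and 60.8 FPKM in WT_PBS. Its WT_LPS libraries lay close together, below every KO_LPS library and above both WT_PBS libraries. It had the smallest adjusted p of any member (0.92 ± 0.15, 95% interval 0.58 to 1.25; limma, adjusted p = 0.0931). Rtp4, a zinc finger protein that binds RNA and restricts flaviviruses, was at 13.7, 13.6 and 6.77 FPKM in KO_LPS, against 2.35, 5.52 and 3.48 FPKM in WT_LPS and 8.11 and 5.36 FPKM in WT_PBS (1.36 ± 0.34, limma, adjusted p = 0.464).

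Lgals3bp, a secreted glycoprotein that binds galectin-3, was at 72.8, 52.2 and 29.1 FPKM in KO_LPS, against 21.9, 21.5 and 25.4 FPKM in WT_LPS and 29.6 and 22.5 FPKM in WT_PBS, with KO_LPS replicate 3 close to WT_PBS replicate 1. Xaf1, an antagonist of the apoptosis inhibitor XIAP, was at 12.3, 15.99 and 7.61 FPKM in KO_LPS, against 4.55, 6.19 and 4.81 FPKM in WT_LPS and 8.34 and 4.89 FPKM in WT_PBS. Their differences were 1.04 ± 0.29 and 1.02 ± 0.29 (limma, adjusted p = 0.575 for each). Ifi44 had 0.34 ± 0.17 at its low level. Trim30a, which in the mouse restrains Toll-like receptor signalling and has near copies that can share its reads, was at 16.1, 16.2 and 19.98 FPKM in KO_LPS, against 8.4, 17.6 and 13.4 FPKM in WT_LPS and 19.5 and 17.3 FPKM in WT_PBS and was the only one of the 6 with overlapping groups (0.43 ± 0.24).

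**Figure D2:**
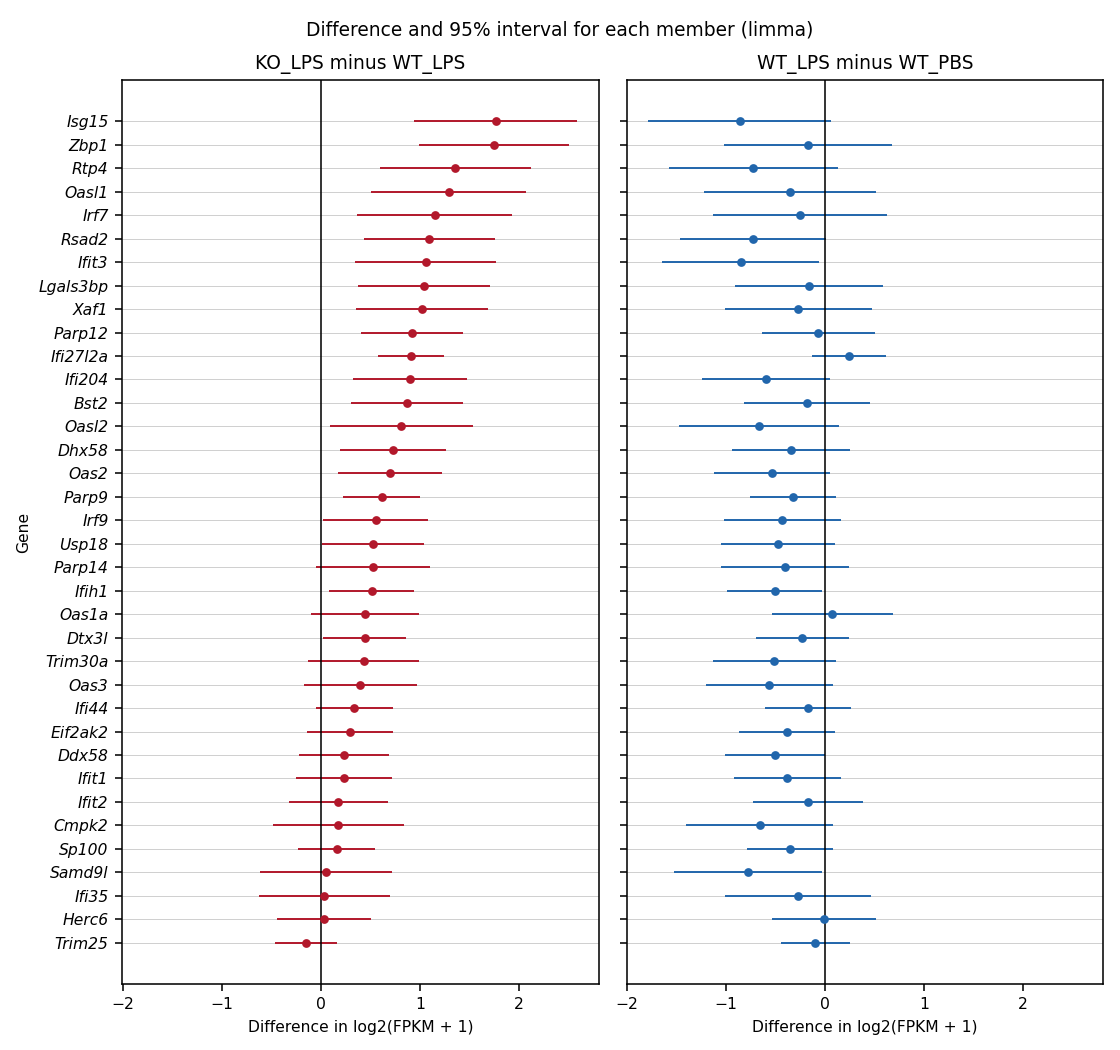
Differences in log2(FPKM + 1) for each member (rows) with 95% intervals from limma, for KO_LPS minus WT_LPS and for WT_LPS minus WT_PBS (panels). KO_LPS minus WT_LPS is above 0 for 35 of 36 members, WT_LPS minus WT_PBS is below 0 for 34 of 36, and no adjusted p is under 0.05.

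The comparison of WT_LPS with WT_PBS asked what LPS did in marrow with WT leukaemia. Most members read lower with LPS, and none passed. This comparison shares the WT_LPS libraries with the one above, where they are subtracted, so the signs of the 2 comparisons are not independent. The difference was below 0 for 34 of 36 members, against 61.6% of all genes, with a median of -0.37 against -0.06 over all genes. With median-ratio scaling 33 and with quantile normalization 32 of 36 were below 0, with medians of -0.31 and -0.29. At an adjusted p under 0.05, 0 of 36 members and 0 of 12063 genes (0.00%) were called by limma. At an unadjusted p under 0.05 there were 141 genes in all (1.17%), and among the members 4, which were all lower (limma): Ifit3, Ifih1, Samd9l and Ddx58, where 0.439% of all genes were higher and 0.730% lower. All 3 WT_LPS libraries lay below both WT_PBS libraries for 15 members, against 10.3% of all genes, and above them for 1, Ifi27l2a, against 5.36%. Of the markers, 9 of 11 for neutrophils and 5 of 9 for monocytes lay below 0, with medians of -0.08 and -0.01, and 5 of 6 erythroid markers with one of -0.31, with none called. Of 9 B-lineage markers 6 lay above 0, with a median of 0.02 and none called. For 3 of these 9 all WT_LPS libraries lay above both WT_PBS libraries, and for 1 below them. A pseudocount of 5 in place of 1 brought the members' median to -0.20, with 34 below 0.

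Of the 4, Ifit3 had a difference of -0.85 ± 0.35, with WT_LPS values of 0.24, 0.8 and 0.75 FPKM, against 2.01 and 1.69 FPKM in WT_PBS. Samd9l differed by -0.78 ± 0.33, with 1.64, 3.45 and 2.15 FPKM in WT_LPS, against 4.62 and 4.8 FPKM in WT_PBS. The RNA sensors Ifih1 and Ddx58 each differed by -0.51, with SE of 0.21 and 0.22 (limma, adjusted p = 0.9998 for all 4). In each of the 4, WT_LPS replicate 1 was the lowest and WT_LPS replicate 2 the nearest to WT_PBS. Isg15 had the largest negative difference, -0.87 ± 0.41, but its WT_LPS replicate 2, at 2.91 FPKM, lay above WT_PBS replicate 1, at 2.71 FPKM.

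Restriction factors (median -0.69) were the role group furthest below 0, with all 4 below WT_PBS in every WT_LPS library. Rsad2 differed by -0.73 ± 0.32, Cmpk2 by -0.66 ± 0.33 and Bst2 by -0.18 ± 0.28. Oligoadenylate synthetases had a median of -0.54, sensors -0.51, blockers of translation -0.38 and transcription regulators -0.31. The ISG15 pathway, at -0.29, ADP-ribosylation, at -0.28, and the other induced proteins, at -0.22, were nearest to 0. The 2 members above 0 were Ifi27l2a (0.24 ± 0.16) and Oas1a (0.07 ± 0.27).

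**Figure D3:**
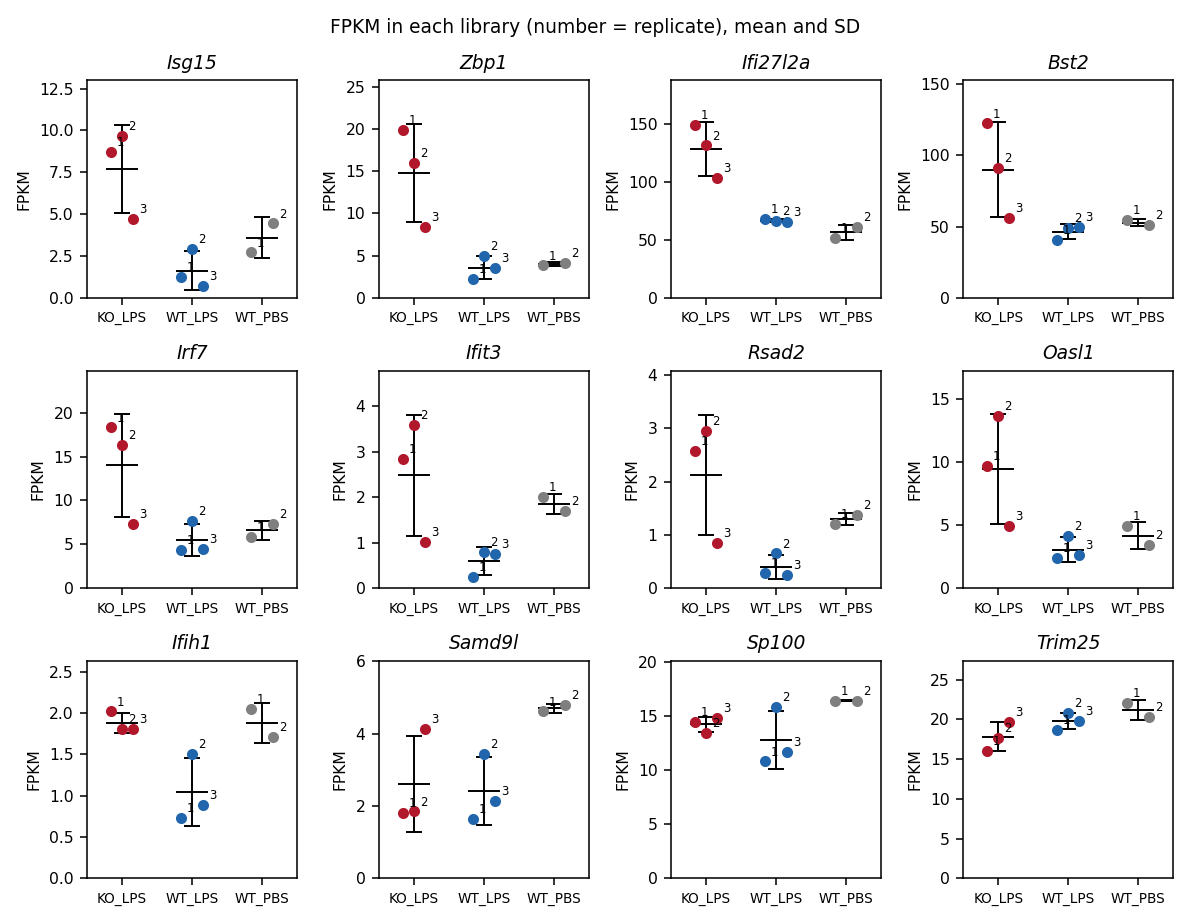
FPKM of 12 members in each library (points, numbered by replicate) with the group mean (line) and SD (bars), for KO_LPS, WT_LPS and WT_PBS from left to right. Ifi27l2a reads 103.5 to 149.6 FPKM in KO_LPS, 65.7 to 67.8 FPKM in WT_LPS and 51.9 to 60.8 FPKM in WT_PBS, and Isg15 is lowest in WT_LPS replicate 3.

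The comparison of KO_LPS with WT_PBS differs in genotype and treatment at once, and it shares its libraries with the other 2 comparisons. Members lay on both sides of 0: 26 were above and 10 below, where 35.0% of all genes were above and 65.0% below, with a median of 0.16 against -0.12 over all genes. With median-ratio scaling the median over all genes moved to 0.01, that of the members to 0.27, and 28 members were above 0. At an adjusted p under 0.05 (limma), 0 of 36 members passed, against 6 genes in all (0.0497%, with 0.0332% higher and 0.0166% lower). At an unadjusted p under 0.05, 8 members were higher (Ifi27l2a, Zbp1, Parp12, Oasl1, Bst2, Irf7, Lgals3bp and Xaf1) and 0 lower, where 2.86% of all genes were higher and 3.83% lower, 6.69% together. Here too 11 of 11 neutrophil markers lay below 0, with a median of -0.82, and 8 of 9 monocyte markers, with one of -0.31. Of 6 tested erythroid markers 4 lay above 0, with a median of 0.86. All 8 listed erythroid markers summed to 1034, 865 and 211 FPKM in KO_LPS, against 366 and 259 FPKM in WT_PBS. Of 9 B-lineage markers 6 lay above 0, with a median of 0.07. None of these markers was called, and their part in the members' differences was not tested.

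In all 3 KO_LPS libraries, 9 members lay above both WT_PBS libraries, against 8.22% of all genes: Zbp1, Ifi204, Isg15, Oas1a, Oasl1, Bst2, Parp9, Parp12 and Ifi27l2a. The reverse held for 4, Ddx58, Samd9l, Sp100 and Trim25, against 13.3% of all genes. The largest differences were 1.58 ± 0.37 for Zbp1 (limma, adjusted p = 0.373) and 1.16 ± 0.16 for Ifi27l2a (limma, adjusted p = 0.0784). At the other end Samd9l differed by -0.73 ± 0.33, and Ifih1 and Ifit2 differed by 0.00, with SE of 0.21 and 0.24. The same 9 members were those with all 3 KO_LPS libraries above all 5 WT libraries, a pattern of 2.25% of all genes.

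Single libraries differed within their groups. The median over members of log2(FPKM + 1) minus the gene's mean was 0.30, 0.31 and 0.15 in KO_LPS replicates 1 to 3, -0.59, -0.02 and -0.30 in WT_LPS replicates 1 to 3, and 0.09 and 0.08 in WT_PBS. WT_LPS replicate 1 was the lowest of the 8 libraries for 27 members, against 17.3% of all genes, and WT_LPS replicates 1 and 3 were both below the other 6 for 25, against 4.19%. WT_LPS replicate 2 was above both other WT_LPS libraries for 30 members, against 48.9% of all genes.

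In KO_LPS, replicates 1 and 2 were above the other 6 libraries for 18 members, against 11.1% of all genes. KO_LPS replicate 3, whose first component score was close to those of WT_LPS replicates 2 and 3, was still above all 3 WT_LPS libraries for 31 members, against 24.6%. Without KO_LPS replicates 1 and 2, a choice made after the data were seen, the members' median against WT_LPS was 0.46, with 35 of 36 above 0. That KO_LPS arm is 1 library with no spread of its own, so the value describes this library alone. Leaving out WT_LPS replicate 1, the library with the most neutrophil marker RNA, gave 0.41, with 31 above 0. Against WT_LPS replicate 1 alone, likewise an arm of 1 library, without the WT_LPS libraries whose titles carry the numbers 40 and 100, the median was 0.93. What these numbers stand for is not stated, all KO_LPS and WT_PBS titles carry numbers of 1 to 8, and the part of the numbering in the result was not tested.

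**Figure D4:**
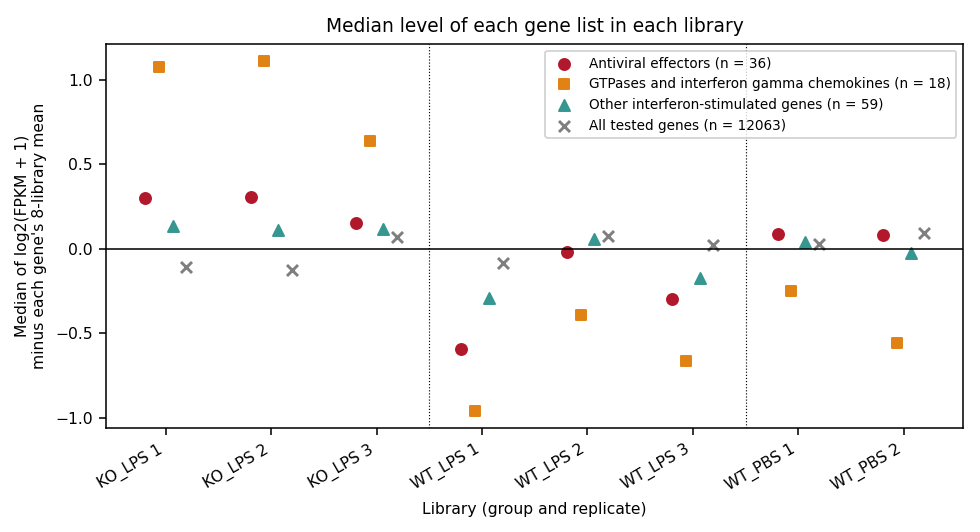
Median over each gene list of log2(FPKM + 1) minus the gene's mean over the 8 libraries, by library. The antiviral members read 0.30, 0.31 and 0.15 in KO_LPS, -0.59, -0.02 and -0.30 in WT_LPS and 0.09 and 0.08 in WT_PBS.

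Other genes of the interferon response were listed beside the members to place them. A list of genes that interferon gamma induces held GTPases, chemokines and also Cd274, Ciita and Ido1. It had the highest median of the lists between KO_LPS and WT_LPS. Of 24 genes listed, 18 were tested, all 18 were above 0 with a median of 1.575, and 6 passed. Those were Tgtp1, Iigp1, Cxcl9, Gbp2, Igtp and Tgtp2, and Tgtp1, an immunity-related GTPase, was at 5.58, 4.82 and 5.2 FPKM in KO_LPS, against 0.37, 0.79 and 0.64 FPKM in WT_LPS and 0.47 and 0.62 FPKM in WT_PBS (1.96 ± 0.17, limma, adjusted p = 0.0135). Between WT_LPS and WT_PBS the same list had a median of -0.13, and between KO_LPS and WT_PBS one of 1.33 with 2 called. The ISRE core was found for 10 of the 13 genes of this list with a window (76.9%). Among the other interferon-stimulated genes it was found for 32 of 64 with a window. The GAS core, TTCNNNGAA, was a choice made after the data were seen. It was found for 5 of 27 members (18.5%) and for 6 of 13 genes of the interferon gamma list (46.2%), against 8.35% of tested genes with a window. Whether these lists differ from the members was not tested.

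A wider list of other interferon-stimulated genes held 71 genes, of which 59 were tested. Between KO_LPS and WT_LPS 44 were above 0, with a median of 0.24, and 0 passed (limma). The one with the smallest p, Phf11d, was at 3.43, 3.75 and 2.39 FPKM in KO_LPS, against 1.12, 1.21 and 1.65 FPKM in WT_LPS and 1.78 and 1.35 FPKM in WT_PBS, and Ifitm3, which keeps enveloped viruses from fusing in endosomes, at 340.2, 264 and 198 FPKM in KO_LPS, against 186, 158 and 133 FPKM in WT_LPS and 150.2 and 159 FPKM in WT_PBS (0.72 ± 0.20, limma, adjusted p = 0.554).

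Among receptors and signal transducers, 8 of 19 were above 0 between KO_LPS and WT_LPS, with a median of -0.13 and 0 called. Irf1, a transcription factor that interferon gamma induces, was at 53.1, 92.6 and 49.4 FPKM in KO_LPS, against 33.3, 31.9 and 25.6 FPKM in WT_LPS and 25.6 and 25.8 FPKM in WT_PBS (1.03 ± 0.23, limma, adjusted p = 0.339). Socs1, the feedback inhibitor of Janus kinases, was at 6.76, 13.3 and 5.57 FPKM in KO_LPS, against 3.31, 4.39 and 3.61 FPKM in WT_LPS and 2.88 and 4.55 FPKM in WT_PBS, and Stat2, a subunit of ISGF3, at 11.99, 11.6 and 8.97 FPKM in KO_LPS, against 6.42, 7.86 and 7.18 FPKM in WT_LPS and 9.53 and 8.24 FPKM in WT_PBS. Genes that sense nucleic acids or LPS upstream of interferon had a median of -0.02 over 14 tested, with 0 called. Mb21d1, which encodes the DNA sensor cGAS, was at 0.94, 1 and 1.53 FPKM in KO_LPS, against 2.33, 3.47 and 2.2 FPKM in WT_LPS and 2.79 and 3.05 FPKM in WT_PBS (-0.76 ± 0.20, limma, adjusted p = 0.515), lower in every KO_LPS library than in any other.

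Interferon transcripts themselves were at the bottom of the table. Of 21 interferon genes listed, 5 had a row and none reached a mean of 0.5 FPKM, so none was tested. Ifng, which encodes interferon gamma, was at 0.18, 0.73 and 0.87 FPKM in KO_LPS, against 0.21, 0.33 and 0.06 FPKM in WT_LPS and 0 and 0.05 FPKM in WT_PBS. Its 2 highest values were in KO_LPS replicates 2 and 3, while KO_LPS replicate 1 lay within the WT_LPS range. Ifnab, a type I interferon gene, was at 0, 0.11 and 0.31 FPKM in KO_LPS, against 0, 0.11 and 0 FPKM in WT_LPS and 0 and 0.1 FPKM in WT_PBS. Ifnz was highest in WT_PBS, at 0.28 and 0.2 FPKM, against 0.16, 0.11 and 0.11 FPKM in KO_LPS and 0.1, 0.1 and 0.08 FPKM in WT_LPS. Ifna1 was above 0 only in KO_LPS replicate 2 (0.14 FPKM), and Ifna13 only in WT_LPS replicate 3 (0.09 FPKM). Plasmacytoid dendritic cells are a cell type known for making type I interferon. Of 8 markers listed for them, 5 (Siglech, Ccr9, Klk1, Pacsin1 and Cd300c) were below 0.5 FPKM in every library. The others were higher: Cox6a2 at 0.92 to 6.34 FPKM, Lair1 at 1.45 to 2.92 FPKM and Smim5 at 0.47 to 3.04 FPKM over the 8 libraries. The 8 markers summed to 3.83 to 10.2 FPKM in KO_LPS, 5.56 to 8.45 FPKM in WT_LPS and 5.5 to 7.45 FPKM in WT_PBS. The 7 NK-cell markers summed to 7.14 to 24.9 FPKM in KO_LPS, 10.2 to 30.8 FPKM in WT_LPS and 10.5 to 27.4 FPKM in WT_PBS. Ncr1, Klra8 and Eomes were below 0.5 FPKM in every library. Klrk1 was at 0.18 to 0.61 FPKM, Prf1 at 0.18 to 1.74 FPKM, Gzma at 3.12 to 10.7 FPKM and Klrb1c at 2.28 to 23.6 FPKM. Klrb1c alone gave 23.6 of the 30.8 FPKM in WT_LPS replicate 2 and 21.2 of the 27.4 FPKM in WT_PBS replicate 2. Between KO_LPS and WT_LPS it lay below 0 (-1.34 ± 0.64). The other 2 tested NK-cell markers, Gzma (0.28 ± 0.36) and Prf1 (0.14 ± 0.29), lay above 0, and none was called. The 8 T-cell markers summed to 12.1 to 13.25 FPKM in KO_LPS, 11.99 to 16.5 FPKM in WT_LPS and 9.36 to 11.3 FPKM in WT_PBS. Lat was the highest of them in every library. It was at 5.15, 7.38 and 5.9 FPKM in KO_LPS, 12.2, 7.11 and 7.66 FPKM in WT_LPS and 3.79 and 7.17 FPKM in WT_PBS. Between KO_LPS and WT_LPS, 5 of 7 tested T-cell markers lay above 0 and 2, Lat and Cd3g, below. Their median was 0.15, with none called. The part of these cell types in the members' levels was not tested.

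Members with the ISRE core in their window overlapped in size of difference with those without it. Between KO_LPS and WT_LPS the median was 0.45 for the 11 members with a match, 0.39 for the 16 without and 0.73 for the 9 with no window in the table. Between WT_LPS and WT_PBS these medians were -0.51, -0.26 and -0.41. Isg15, with 3 overlapping matches, had the largest difference between KO_LPS and WT_LPS, but Ifit1, with 2, had one of 0.23 ± 0.21, and Irf7, with no match in its window, had one of 1.15 ± 0.34.

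Members that sit side by side in the genome did not always read alike across libraries. Rsad2 and Cmpk2 are 12665 bases apart on chromosome 12, and their highest libraries were KO_LPS replicate 2 for Rsad2 and WT_PBS replicate 2 for Cmpk2. Oas2 and Oas3, which are 3212 bases apart on chromosome 5, had their highest values in KO_LPS replicate 2 for Oas2 and WT_PBS replicate 2 for Oas3. Oasl1 and Oasl2, 10898 bases apart on the same chromosome, were highest in KO_LPS replicate 2 for Oasl1 and WT_PBS replicate 2 for Oasl2. Of 7 neighbouring pairs within 100000 bases, 4 had this pattern, the last being Ifit3 and Ifit1 on chromosome 19. In the other 3 (Parp14 and Dtx3l, Dtx3l and Parp9, Ifit2 and Ifit3) both genes were highest in a KO_LPS library, though not in the same one. With 1 value a library these differences within pairs were not tested, and the pattern and the 3 pairs given first were chosen after their values were seen. The share of other neighbouring genes with this pattern was not counted. Some highest values led narrowly. Ifit1 was at 0.8 FPKM in WT_PBS replicate 2 and 0.72 FPKM in KO_LPS replicate 2. Oasl2 was at 4.25 FPKM in WT_PBS replicate 2 and 3.95 FPKM in KO_LPS replicate 3.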

How the data were processed

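Per the labels' protocols, the 8 libraries were prepared from total bone marrow RNA with a SMARTer kit for mRNA. The authors deposited FPKM values, per the file headers, for 18020 rows, of which 16798 matched a symbol in RefSeq's GRCm38.p6 gene table by NCBI gene number. The build, GRCm38 (mm10), comes from the submitters' processing notes, and the sources used here name no aligner or counting tool. FPKM accounts for length and for the library's total, not for its composition, and since counts were not used, depth and counting error are unknown.

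Groups came from the labels' genotype and treatment; the targeted gene is not reported here, so its level did not serve as a check of the labels. Values were taken as log2(FPKM + 1). All members with a row and all genes averaging 0.5 FPKM or more, 12063 together, were fitted with limma 3.58.1 in R 4.3.3 (intensity trend) over all 8 libraries, with 3 group means. Two-sided p-values were Benjamini-Hochberg adjusted per comparison, and those under 0.05 counted as called. The fit was tested on simulated data. No pair of libraries was identical (highest correlation across genes, which are not independent replicates, 0.9954), and each counted as 1 replicate.

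The members, the other gene lists and the tests were chosen with earlier results of these data known, so neither lists nor counts are independent evidence. Named in full are, in each role group, the 2 members with the smallest p in KO_LPS against WT_LPS or WT_LPS against WT_PBS and the highest one, and up to 4 genes of each other list. Further members were named after their values were seen. Alternatives covered pseudocounts of 0.1 and 5, filters, scaling, moderation, library weights and left-out libraries. RefSeq symbols Mnda and Pyhin1 duplicated Ifi211 and Ifi209 and were counted once.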

Additional observations from a re-analysis of the deposited data

How the results depend on the processing

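No paired analysis was possible because the groups share no replicate numbers in the labels. Between KO_LPS and WT_LPS, the 10 genes called became 5 with no filter, 2 with a filter at a mean of 5 FPKM, 0 without the WT_LPS libraries numbered 40 and 100, 0 with only these groups in the fit, 1 without KO_LPS replicates 1 and 2 (chosen after the data were seen) and 8868 with library weights, which also called 32 members. Those weights ran from 0.162 to 58.0, the latter for WT_LPS replicate 3, and their estimation did not converge. Under them Herc6 (-0.24), Ifit2 (-0.23) and Cmpk2 (-0.31) turned negative and passed. With 1 library left out, genes called ranged from 0 to 161, members called from 0 to 11 and the members' median from 0.41 to 0.74, with 161 genes and 11 members without KO_LPS replicate 3. The median was 0.86 with a pseudocount of 0.1, 0.34 with one of 5 and 0.93 without the WT_LPS libraries numbered 40 and 100.

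Between WT_LPS and WT_PBS, leaving out 1 library gave 0 to 2 genes called, 0 members called and medians from -0.55 (without WT_LPS replicate 2) to -0.24 (without WT_LPS replicate 1), and a median of -0.20 with a pseudocount of 5. Between KO_LPS and WT_PBS, the 6 genes called became 0 with no filter, without the WT_LPS libraries numbered 40 and 100 or with only these groups, 3 with the 5 FPKM filter or median-ratio scaling, 10 with quantile normalization, 1 without KO_LPS replicates 1 and 2, and 2997 with library weights (16 members). Leaving out 1 library gave 0 to 125 genes, 0 to 4 members (Zbp1, Bst2, Ifi27l2a and Lgals3bp, without KO_LPS replicate 3) and medians from 0.09 to 0.24. The median was 0.09 with a pseudocount of 5, 0.38 with the 5 FPKM filter, 0.27 with median-ratio scaling, 0.38 with quantile normalization and 0.069 without KO_LPS replicates 1 and 2. Among single members past the threshold neither before nor after, the sign turned in 9, 17 and 30 member and setting pairs for KO_LPS minus WT_LPS, WT_LPS minus WT_PBS and KO_LPS minus WT_PBS. Where 1 library is left in a group, its spread is assumed to be that of the other groups. The causes of these changes were not tested. Depth in reads is unknown, so the precision of low values (Ifit1 and Ifi44, and Rsad2 and Ifit3 in WT_LPS) cannot be given.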
